A study of Saccharomyces cerevisiae with 50 samples.

Results

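The cytoplasmic ribosomal protein genes of budding yeast were taken as the open reading frames whose standard symbol is RPL, RPS or RPP followed by a digit. This gave 137 of the 6204 open reading frames on the arrays. Of these, 76 encode proteins of the large subunit (RPL), 5 encode the acidic stalk of the large subunit (RPP0, RPP1A, RPP1B, RPP2A and RPP2B), and 56 encode proteins of the small subunit (RPS). A further gene with matching letters, RPP1, encodes a subunit of ribonuclease P and was left out. Most ribosomal proteins of this yeast are made from a pair of duplicate genes, and 118 members formed 59 pairs of an A and a B copy, while 19 were in a single copy.

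The ribosome reads messenger RNA and joins amino acids into protein. The small subunit decodes the message and the large subunit forms the peptide bond, while the stalk receives the translation factors. In growing yeast the ribosomal protein genes are among the most strongly transcribed genes. They are controlled largely as a group, by Rap1, Fhl1, Ifh1 and Sfp1, in step with nutrients and growth rate. Most of the proteins are needed in equal amounts for assembly, which takes place largely in the nucleolus.

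The series followed W303 cells, a laboratory strain, through 2 cell cycles. Cells were held with alpha factor, a mating pheromone that stops MATa cells in G1, and then released into YEPD, a rich glucose medium, at 0 min. Total RNA of samples taken every 5 min from 0 to 120 min was compared on 2 arrays per time point with RNA of an asynchronous culture grown overnight in the same medium to an OD of 0.6. In replicate 1 the sample was in Cy3 and in replicate 2 in Cy5, so that the 50 arrays form 25 technical dye-swap pairs, and each pair was averaged to 1 value. Values are log2 ratios of sample over reference, so a value of 0 is the level of the asynchronous culture and a value of 1 is 2-fold above it. The labels describe a single culture, so each p-value rests on the scatter of time points around the fit, part of which may be technical.

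All 14 listed pheromone-induced genes and all 7 listed MATa-specific genes lay above the reference at 0 min, with medians of 3.42 and 2.96. Of 4 MATalpha genes, 2 lay above it, with a median of -0.02. The arrays of a dye-swap pair correlated over all open reading frames with r from 0.196 to 0.673, with a median of 0.472. The titles of the labels carry dates that form 2 batches of replicate 1 arrays, with the change between 55 and 60 min, and 6 batches of replicate 2 arrays. The number of arrays limits the precision. Within a ratio to a reference, and in RNA from a whole culture, less RNA per cell and fewer cells with that RNA cannot be told apart.

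As a median, the ribosomal protein genes moved little until 100 min, and stood far above the reference near the end of the course. The median of the 137 genes was 0.01 at 0 min, fell to its lowest value of -0.11 at 25 min, and reached 0.09 at 55 min and 0.12 at 60 and 70 min. From 75 to 100 min it lay between 0.03 and 0.06. It was 0.52 at 105 min, which is 1.44-fold above the reference, then 0.22 at 110 min, 0.42 at 115 min and 0.15 at 120 min. The median of all open reading frames stayed near 0 throughout.

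The rise at the end was broad within the group. At 105 min, 72 members (52.6%) lay more than 0.5 above the reference, against 16.4% of all open reading frames. At 115 min the number was 54 (39.4%), against 9.53%. No more than 3 members lay that high at any time from 0 to 100 min, and at 110 min there were 11. For 78 members the highest value of the course was at 105 min and for 32 it was at 115 min. The lowest value fell at 25 min for 37 members and between 15 and 45 min for 94.

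**Figure D1:**
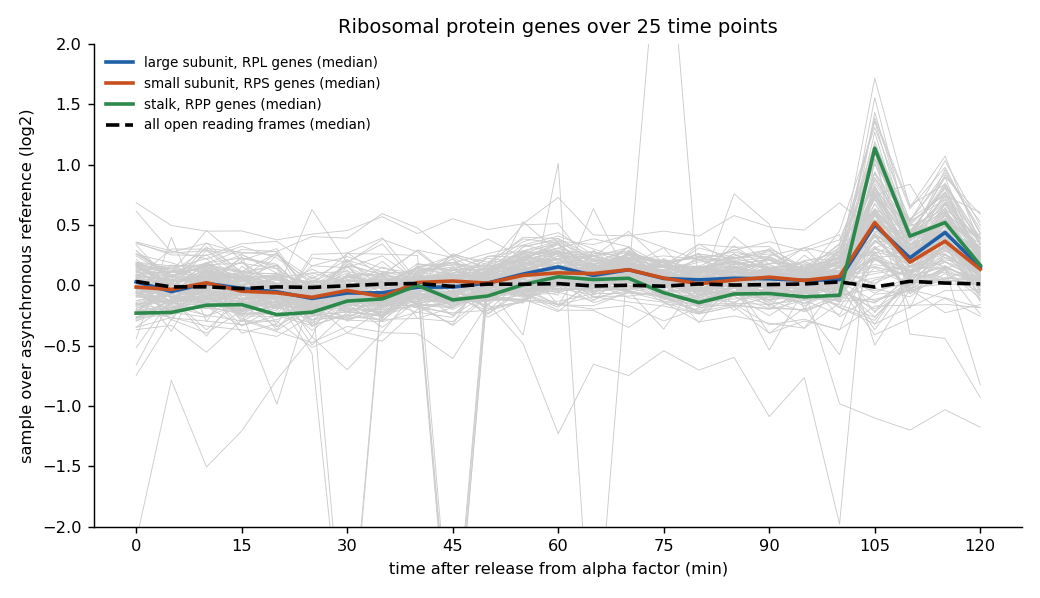
Log2 ratio of sample over asynchronous reference against time after release from alpha factor. Grey lines are the 137 ribosomal protein genes, coloured lines the medians of the large subunit, small subunit and stalk genes, and the dashed line the median of all open reading frames. Some grey lines with values at the limit of the deposited scale leave the axis. The large and small subunit medians run together. The stalk median lies below both at every time up to 100 min except 40 min. All stand highest at 105 min, where the large subunit is at 0.50, the small at 0.52 and the stalk at 1.14.

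The large and small subunits followed much the same course. The medians of the large and of the small subunit differed by between -0.05 at 45 min and 0.07 at 115 min (large minus small). As a description over 25 time points, their Pearson correlation was 0.980, and 0.934 without 105, 110 and 115 min. At 105 min, 38 of 76 large subunit genes and 29 of 56 small subunit genes lay more than 0.5 above the reference. The stalk median lay lower up to 100 min. Its mean was -0.14 over 0 to 55 min, against -0.02 for the large and the small subunit. Over 60 to 100 min it was -0.04, against 0.07 for each of them. At 105 min all 5 stalk genes were more than 0.5 above the reference, from 0.75 for RPP0 to 1.55 for RPP1A.

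Both dye orientations showed the late rise. The median of the members at 105 min was 0.48 in replicate 1 and 0.53 in replicate 2, and at 115 min it was 0.39 and 0.47. Over 25 time points the 2 series of medians correlated with r of 0.898, and with 0.633 without 105, 110 and 115 min. The late arrays shared a date batch with lower ones. In the batch of replicate 2 that held 85 to 100 min and 110 to 120 min, the median ranged from 0.03 at 90 min to 0.47 at 115 min. The array of that replicate at 105 min was alone in its batch. In replicate 1, all arrays from 60 to 120 min formed a batch, in which the median ranged from -0.03 at 80 min to 0.48 at 105 min.

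**Figure D2:**
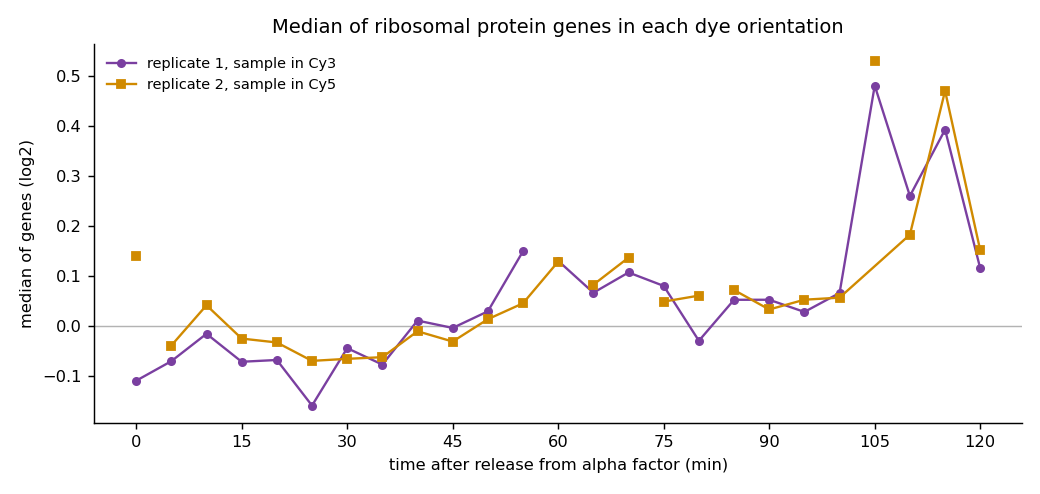
Median log2 ratio of the 137 ribosomal protein genes in each dye orientation against time after release, with lines joining the arrays of a date batch. Circles are replicate 1 (sample in Cy3) and squares are replicate 2 (sample in Cy5), and both stand highest at 105 and 115 min.

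The dip and the smaller rise before 60 min also lay within batches. In replicate 1 the median went from -0.16 at 25 min to 0.15 at 55 min, both in its first batch, and was 0.13 at 60 min, in the next. In replicate 2 it went from -0.07 at 25 min to 0.13 at 60 min within its batch of 5 to 60 min. At 0 min the orientations differed in sign, with -0.11 in replicate 1 and 0.14 in replicate 2, whose array at 0 min was alone in its batch.

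Single genes repeated less closely between orientations than the median did. The correlation of replicate 1 with replicate 2 over 25 time points had a median of 0.560 over members, from -0.28 for RPL31A to 0.913 for RPS25B, and of 0.497 over all open reading frames. Without 105, 110 and 115 min the medians were 0.278 and 0.438. The standard deviation over time had a median of 0.177 over members and of 0.220 over all open reading frames. In 7 members (RPL10, RPL27A, RPL33B, RPL36A, RPS21A, RPS26B and RPS28A) 8 single-array values lay at the limit of the deposited scale, and the standard deviations of these genes, between 0.695 and 0.984, rest on those values.

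The highest values at 105 min belonged to genes of all 3 groups. RPS31, which encodes a small subunit protein made as a fusion to ubiquitin, ranged from -0.10 to 1.72, with a median of 0.08 over the course. Its value of 1.72 at 105 min was measured as 1.60 in replicate 1 and 1.83 in replicate 2. Its other late values were 0.65 at 110 min and 1.07 at 115 min, and before 105 min it did not exceed 0.38. RPS12, a small subunit protein, ranged from -0.28 to 1.39, with 1.46 and 1.31 in the orientations at 105 min. The stalk genes RPP1A and RPP2B stood at 1.55 and 1.43 at that time, against medians of 0.00 and -0.06 over the course. Among the large subunit genes, RPL37B reached 1.37, RPL41B 1.36 and RPL29 1.31. RPL41A and RPL41B, the shortest members, encode the same small basic peptide.

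A few members did not join the late rise. At 105 min RPL7B stood at -1.10, RPS20 at -0.50, RPS1A at -0.41 and RPS8A at -0.37, and 9 members had their lowest value of the course there. Of these, RPS20 was back at 0.25 at 115 min and RPS8A at 0.05. Over the course, 10 members correlated negatively with the median of the other members, with RPL7B (-0.72), RPS1A (-0.57) and RPL17A (-0.50) the lowest.

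The late values moved with the length of the gene, across the whole array. Gene span is the distance from start to stop codon in the R64 gene table, introns included, and was known for all 137 members and for 91.9% of open reading frames. Over all open reading frames the Spearman correlation of span with the log2 ratio was -0.376 at 105 min, -0.261 at 110 min and -0.294 at 115 min, and between -0.161 and 0.092 at the other 22 times. Shorter genes therefore had higher values at the late times. The members are short, with a median span of 771 bases against 1236 for all open reading frames. Among the members alone the correlation was -0.382 at 105 min, -0.201 at 110 min and -0.320 at 115 min. At the other times it ranged from -0.3505 at 100 min to 0.1794 at 25 min, with -0.3455 at 55 min. Among the members it was therefore not particular to the late rise. At 105 min, open reading frames outside the group with spans of 750 to 900 bases had a median of -0.02. The 44 members of that span had a median of 0.53. Outside the group, spans of 300 to 450 bases had a median of 0.36. Below 300 bases the medians were 0.58 for other open reading frames and 1.09 for 8 members. In 57 of the 137 members the span is not a multiple of 3, as happens where an intron is included. Spliced transcripts of such genes are shorter than the span, so members and other open reading frames of equal span may differ in transcript length.

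**Figure D3:**
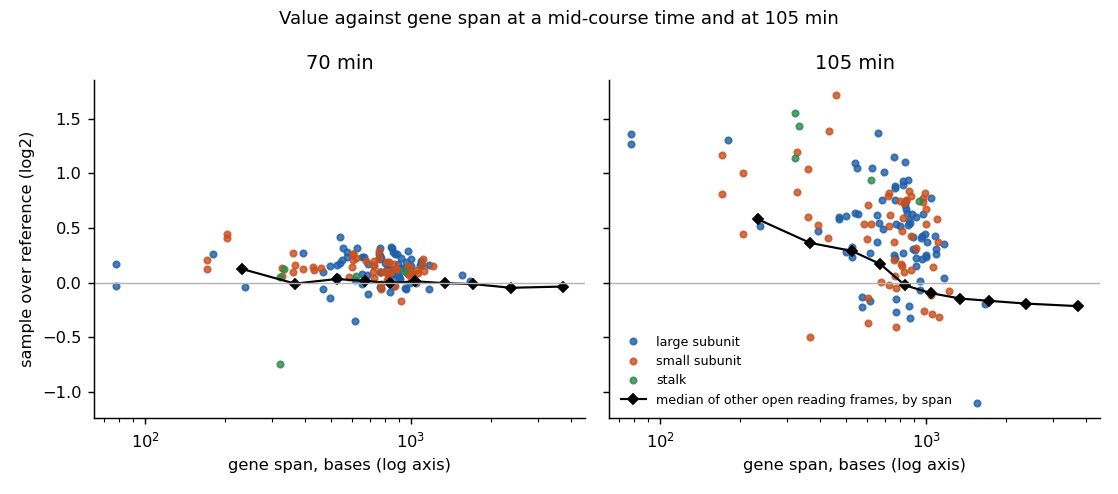
Log2 ratio of sample over reference against gene span in bases on a log axis, at 70 min and at 105 min. Points are ribosomal protein genes coloured by subunit, and diamonds are the medians of the other open reading frames in classes of span. At 105 min the diamonds fall with span and most ribosomal protein genes lie above them. At 70 min the diamonds lie between -0.05 and 0.03, except for 0.12 in the class below 300 bases.

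The trend with span was fitted on each array over the open reading frames outside the group and subtracted. The median of the members was then 0.39 at 105 min and 0.33 at 115 min. Span counts introns, so the part subtracted from members with an intron may be too small. In each orientation the correlation of span with the ratio over all open reading frames was lowest at 105 and 115 min. In replicate 1 it was -0.2185 and -0.251, and outside 105 to 115 min never below -0.07425. In replicate 2 it was -0.442 and -0.311, but also -0.2882 at 40 min and -0.2526 at 120 min. Other arrays of replicate 2 thus carried a similar, weaker trend. The part of the trend in the values of single members was not tested. The counts of members for the level, the cosine and the smooth course are therefore given also without 105, 110 and 115 min.

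The level of the ribosomal protein genes was higher in cycle 2 than in cycle 1. The comparison sets 12 time points from 60 to 115 min against 12 from 0 to 55 min, at matched phase of a cosine with a period of 66 min. Of 137 members, 68 (49.6%) were higher in cycle 2 at an adjusted p under 0.05, against a background of 10.3% of all open reading frames. Only RPL7B passed as lower, against a background of 10.5%. The median difference was 0.18 for the members and 0.00 for all open reading frames, and it was above 0 in 130 members.

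The difference was spread over the subunits. It passed in 39 of 76 large subunit genes (median 0.18), in 2 of 5 stalk genes (median 0.31) and in 27 of 56 small subunit genes (median 0.15). Of the single-copy members, 9 of 19 passed. In replicate 1 alone 52 members passed, against a background of 8.93%, and in replicate 2 alone 30 passed, against 5.54%, with 20 in both. In replicate 1 the cycles lie in different date batches, and in replicate 2 only the array at 60 min shares a batch with cycle 1, so batch and cycle cannot be told apart. Without 105, 110 and 115 min, 50 members passed as higher against a background of 12.6%, of which 45 were among the 68. These were 28 large subunit, 2 stalk and 20 small subunit genes, and the subunit medians were 0.11, 0.11 and 0.10. In that fit RPL19B (-0.14) and RPS22B (-0.11) passed as lower, against a background of 13.2%. With the trend with span subtracted, 65 passed against 11.3%, and 63 of them were among the 68.

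**Figure D4:**
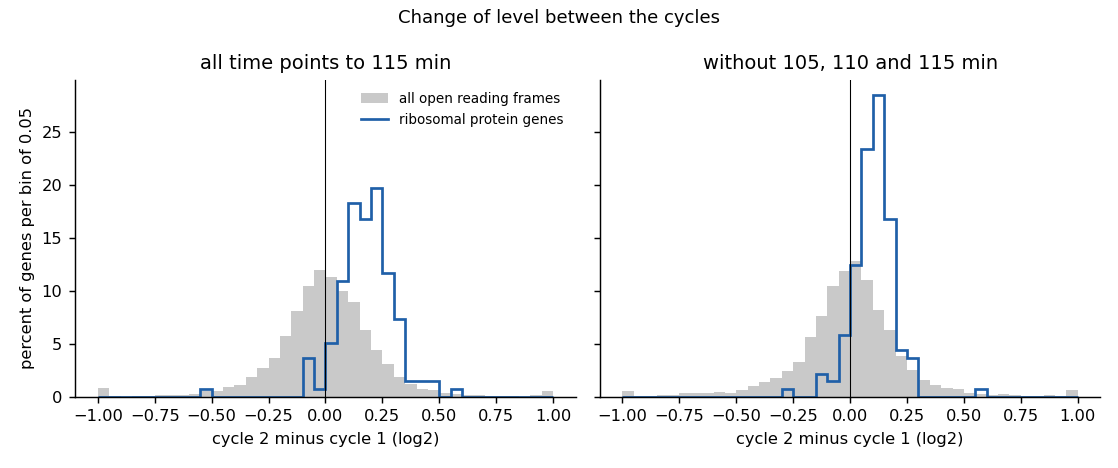
Distribution of the log2 difference between cycle 2 and cycle 1 for ribosomal protein genes (line) and all open reading frames (grey), as a percent of genes per bin of 0.05, with the end bins holding all values beyond 1 and -1. The members are shifted to positive values, with a median of 0.18 over all time points, and a shift remains without 105, 110 and 115 min.

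The largest passing differences were found for RPS31, RPL30, RPS12, RPP1B and RPL27B. RPS31 had a mean of 0.03 in cycle 1 and of 0.38 in cycle 2, and the fitted difference at matched phase was 0.37 ± 0.12 (SE, 12 against 12 time points, limma adjusted p = 0.0369). Without the 3 late times its difference was 0.14, which still passed (adjusted p = 0.0232). RPL30, a large subunit protein that represses the splicing of its own transcript, rose by 0.35 ± 0.09 (SE, adjusted p = 0.00781), and by 0.19 without the late times (adjusted p = 0.0176). RPS12 rose by 0.34 ± 0.12 (adjusted p = 0.0429), but its difference without the late times was 0.12 and did not pass (adjusted p = 0.167).

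Other genes depended less on the late times. RPP1B, of the stalk, rose by 0.34 ± 0.08 (adjusted p = 0.00451), and by 0.20 without them (adjusted p = 0.00267). RPL27B rose by 0.33 ± 0.06 (adjusted p = 0.000468), and by 0.26 without them (adjusted p = 0.000415). The smallest adjusted p belonged to RPL28, the large subunit protein known for mutations that give resistance to cycloheximide. It rose by 0.30 ± 0.04 (adjusted p = 3.01e-05), and by 0.26 without the late times. In RPL28 the values from 5 to 55 min lay between -0.23 and -0.01, with 0.03 at 0 min. From 60 to 115 min they lay between 0.09 and 0.43, so the cycles did not overlap.

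The opposite member, RPL7B, fell by 0.51 on the log2 scale (SE 0.17, adjusted p = 0.0335). It did not pass in either replicate alone (-0.62 and -0.40 in replicates 1 and 2), nor with the arrays paired by time point as a replicate block (adjusted p = 0.0711). It encodes a large subunit protein, as its copy RPL7A does. Its values lay between -0.44 and 0.63 up to 85 min, at -0.54, -0.03 and -0.98 at 90, 95 and 100 min, and then from -1.20 to -1.03 from 105 to 120 min. At 105 min the orientations disagreed, with -2.33 in replicate 1 and 0.13 in replicate 2. At 110 min they gave -1.02 and -1.38, and at 115 min -0.67 and -1.39. Without the 3 late times its difference was -0.26 and did not pass (adjusted p = 0.244). The open reading frames most like it in course were YBL101W-A, YJR026W, YCL020W and YML040W, with r from 0.9365 to 0.943. They are listed without a gene name. After them came ALD3, an aldehyde dehydrogenase gene (0.933), YMR046C, and HXT13, a hexose transporter gene (0.931). AAD4, YMR051C and YJR028W followed, with r from 0.928 to 0.930. YMR046C, YMR051C and YJR028W are also listed without a gene name. At 110 min the open reading frames without a name stood between -3.386 and -1.916, and the named genes between -1.819 and -0.926. All were looked up after the values of RPL7B were seen.

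Most ribosomal protein genes did not follow a cosine of the cell cycle detectably. A cosine with a period of 66 min passed in 8 of 137 members (5.84%), against a background of 33.7% of all open reading frames. Without 105, 110 and 115 min it passed in 35 members, against a background of 41.9%, and 7 genes were shared by both sets. In replicate 2 alone, over the whole course, 3 members passed, against a background of 23.9%. For these 35 genes the amplitude, the distance from the mean of the fit to its peak, lay between 0.07 and 0.16, with a median of 0.10. The median amplitude of all open reading frames that passed was 0.19.

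The passing genes peaked around the boundary between the cycles. Of the 35, 26 peaked between 50 and 66 min and 9 between 0 and 12 min of the fitted period. That stretch was not planned and holds all 35 peaks, so it serves as a description only. Of all passing open reading frames, 41.4% peaked in it. Among the 8 genes that passed over the whole course, RPS27A and RPL16A had the largest amplitudes, 0.16 each, with limma adjusted p of 0.00288 and 0.00553. In RPL16A the lowest value was -0.51 at 25 min, and it was -0.01 at 50 min, 0.17 at 70 min and -0.14 at 75 min. RPL17B, RPS8A and RPL9B had amplitudes of 0.11 and adjusted p of 0.0180, 0.0433 and 0.0414.

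A smooth course of any shape, fitted as a spline with 4 degrees of freedom, passed in 85 members (62.0%), against a background of 54.6%, and in 75 without 105, 110 and 115 min, against 56.4%. Within date batches far fewer passed. With date batch as a block, 19 members passed in replicate 1 (background 35.2%) and 25 in replicate 2 (background 38.5%). The fitted courses spanned 1.70 for RPL7B, 0.99 for RPS31, 0.97 for RPS25A and 0.95 for RPS12, and that of RPP1A lay just above that of RPS31. The fit was highest at 35 min for RPL7B and at 120 min for the other 4.

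The same stretch of the cycle was compared with and without the recent arrest, as 0, 5, 10 and 15 min against 65, 70, 75 and 80 min. Soon after release 6 members were lower, against a background of 6.16%, and 1 was higher, against 9.4%. The median difference was -0.10 for the members and -0.00 for all open reading frames, and it was below 0 in 114 members. Date batch and window cannot be told apart here.

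RPP1B, of the stalk, was among the lower genes. Its early values were -0.23, -0.22, -0.26 and -0.06, and its later ones 0.09, 0.06, 0.06 and 0.11, a difference of -0.28 ± 0.07 (SE, limma adjusted p = 0.0261). The windows did not overlap for this gene. RPL5, which binds the 5S RNA of the large subunit, differed by -0.24 (adjusted p = 0.0328), RPL28 by -0.23, RPS14A by -0.22 and RPL7A by -0.21. RPL19B alone was higher, with 0.26, 0.19, 0.09 and 0.19 early and -0.14, -0.06, -0.00 and -0.02 later, a difference of 0.24 ± 0.07 (adjusted p = 0.0442). Leaving out any of 5, 10, 15, 65, 70, 75 or 80 min left between 0 and 3 lower members past the threshold. In replicate 2 alone no member was lower by limma, against a background of 2.71%, and 8 had an unadjusted p under 0.05.

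Within the first cycle, 7 members rose from 5 to 55 min, against a background of 11.8%, and none fell by limma, against 10.3%, while 18 members had an unadjusted p under 0.05 in either direction. These 11 time points lay in a single date batch of each orientation. RPP2A rose by 1.04 ± 0.30 per 60 min (SE, adjusted p = 0.0287), from a value of -0.79 at 5 min and -1.50 at 10 min to -0.15 at 50 min and -0.48 at 55 min. This stalk gene lay below the reference at every time except 105 min, where it stood at 1.14. RPL31B rose by 0.59 ± 0.16 (adjusted p = 0.0213), RPL18B by 0.36, RPL24B by 0.35, RPL24A by 0.32 and RPL5 by 0.29. RPP2B rose by 0.46 (adjusted p = 0.0311) but did not pass with the replicate block (adjusted p = 0.0576) or in either replicate alone (0.74 and 0.18). In replicate 2 alone 1 member rose, against a background of 10.2%.

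The copies of a pair resembled each other more than other members did, as a description. The correlation of the A with the B copy over 25 time points had a median of 0.754, against 0.524 over the 9257 other couples of members. All share the reference, and copies of near-identical sequence may hybridise to each other's spots, so their separate values are uncertain. Relative to the median of the members, the correlations were 0.463 and -0.01. Without 105, 110 and 115 min they were 0.487 and 0.321. In 25 pairs it was above 0.8.

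The closest copies were those of RPS25 (0.953), RPL41 (0.947), RPS29 (0.938), RPL14 (0.936) and RPL37 (0.919). RPS25A and RPS25B stood at 1.19 and 0.83 at 105 min. The least alike were those of RPS22 (-0.20), RPL7 (-0.11), RPS1 (0.01), RPS28 (0.01) and RPS21 (0.14). Of the 12 pairs under 0.4, 6 hold a value at the limit of the deposited scale. With such values left out RPS28 came to 0.282 and RPS21 to 0.332, and RPS26, RPL36 and RPL33 rose to 0.919, 0.808 and 0.806.

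**Figure D5:**
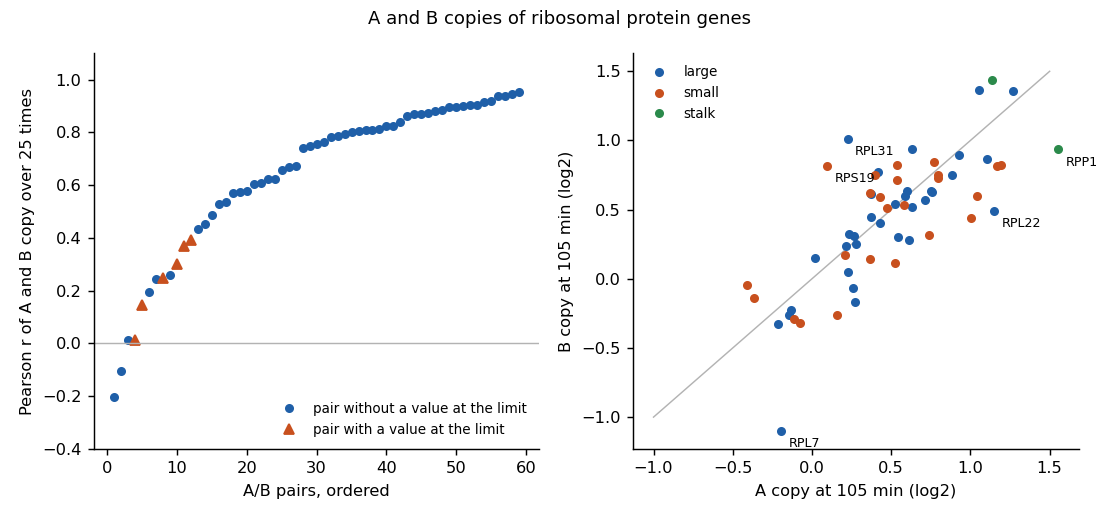
Left, Pearson correlation of the A and B copy over 25 time points for 59 pairs in rising order, with triangles for the 6 pairs that hold a value at the limit. Right, log2 ratio of the B copy against the A copy at 105 min, coloured by subunit, with the line of equal values. RPL7, RPL31, RPS19, RPL22 and RPP1 lie far from it. For RPL7 the orientations disagree in sign, with A minus B at 2.15 in replicate 1 and -0.34 in replicate 2.

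Some copies stood apart at 105 min in both orientations, and the pairs named here are among those with the largest differences. RPS19A was at 0.16 and 0.03 at 105 min in replicates 1 and 2, while RPS19B was at 0.66 and 0.97. RPL31A was at 0.38 and 0.08, while RPL31B was at 0.94 and 1.09. RPL22A was at 0.96 and 1.33, and RPL22B at 0.41 and 0.56. Over all pairs the A copy was higher at 105 min in 34 of 59, with a median size of the difference of 0.18. The sign was shared by the orientations in 35 of the 59, not far above an even split.

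For the difference between cycles, both copies passed in 13 pairs, a single copy in 28 and none in 18, and 31 A copies and 23 B copies passed. A pair with a single passing copy is not shown to differ between copies, since that difference was not tested. RPS22 gives an example, with 0.20 for RPS22A and -0.08 for RPS22B (adjusted p = 0.103). RPS22B lay above the reference in cycle 1 with a mean of 0.24, and RPS22A at -0.02. Those means were 0.16 and 0.17 in cycle 2.

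Outside the group, the courses most like the median of the members were those of YPR044C (r = 0.974), YLR076C (0.970), YLR101C (0.969) and TOM5 (0.954), a subunit of the mitochondrial import pore, over 25 time points. They were followed by YCR102W-A, YCR001W, ANB1, YDR024W, YCR051W and MTC7, with r between 0.940 and 0.946. YPR044C, YLR076C, YLR101C, YCR102W-A and YDR024W are not in the R64 gene table. YPR044C, YLR076C, TOM5 and YDR024W are numbered on their chromosome next to RPL43A, RPL10, RPS23B and RPS11A. Whether the spots of such neighbours read the transcript of the member itself was not tested, so their likeness need not come from a separate gene. ANB1 encodes a form of translation factor eIF5A. So does HYP2, of the elongation list, with r = 0.938 and the same span of 474 bases. Whether the spot of either gene reads the transcript of the other was not tested.

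Of 16 regulators of the ribosomal protein genes, HMO1, which encodes a DNA-binding protein found at many of their promoters, had the course closest to theirs (r = 0.891, and 0.864 without the late times). It ranged from -1.10 to 0.48 and was higher in cycle 2 by 0.61 ± 0.09 (SE, adjusted p = 7.53e-05). TOD6, which encodes a repressor of ribosome biogenesis genes, was lower by 0.37 on the log2 scale (value -0.37, adjusted p = 0.0222), and the other 14 did not pass. In the cosine fit 7 of the 16 (43.8%) passed, against the background of 33.7%, among them RAP1 with an amplitude of 0.26 and a peak at 40.2 min, IFH1 with 0.26 and 42.2 min, and FHL1 with 0.22 and 37.0 min. SFP1 did not pass, with an amplitude of 0.15 (adjusted p = 0.228).

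Genes of translation and of ribosome assembly were counted in the same fits. Of 20 genes for elongation and ribosome-associated factors, 2 were higher in cycle 2, HYP2 (translation factor eIF5A) by 0.47 and ASC1 (a protein of the small subunit) by 0.22, against the same background of 10.3%. Of 49 assembly and RNA polymerase I genes, none was higher by limma, 7 (14.3%) were lower, against a background of 10.5%, and 12 had an unadjusted p under 0.05 in either direction. Their cosine passed in 31 of 49 (63.3%), against 33.7%. Their slope from 5 to 55 min rose in 10 (20.4%), against 11.8%, and was positive in all 49, while 3279 of all 6204 slopes were positive. Of 54 genes for mitochondrial ribosomal proteins, 32 (59.3%) were higher in cycle 2, with a median difference of 0.20, so that the higher level in cycle 2 was found in that list also. Differences between the lists were not tested.

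Dye bias, which is 0.5 times the difference between the orientations of a pair in log2 units, passed in 70 members (51.1%), against a background of 46.5%. It ran towards Cy5 in 40 (background 32.3%) and towards Cy3 in 30 (background 14.3%), and its median size was 0.06 in the members and in all open reading frames. The largest among those that passed were -0.20 for RPS20 and -0.17 for RPL15B towards Cy3, and 0.16 for RPL9A and 0.15 for RPS3 towards Cy5. Averaging the dye-swap pairs cancels a bias that is the same in both orientations.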

How the data were processed

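The deposited table gives a log ratio per open reading frame and array, with neither base nor direction stated. The authors' deposited values were read as log10 ratios, Cy5 over Cy3, since they end at -2 and 2, a 100-fold limit. The base is thus inferred and sets the size of every log2 value and fold, but not the tests. Values were multiplied to log2, replicate 1 was turned to sample over reference by the dye labels, and pairs were averaged. That the result runs as sample over reference is likely from pheromone genes at 0 min rather than stated. The normalization by the authors is not given in the sources here. Array medians lay between -0.00463 and 0.0345 in log10 units.

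Of 6217 lines, 13 were not open reading frames. The R64 gene table named 5703 and 501 kept the deposited name. No coordinates are given. Missing values numbered 438 (4 in members) and values at the limit 709 (8 in members), which were kept. Groups are the 25 time points, and a gene needed 20 of them.

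Tests were fitted over all open reading frames in R 4.3.3 with limma 3.58.1, adjusted by Benjamini-Hochberg with a threshold of 0.05, and were tested on simulated data. A period of 66 min was used. Over 40 textbook cell cycle genes the best period was 63 min (mean R squared 0.723, against 0.714 at 66 min). Trends with span used lowess with a span of 0.3 over open reading frames outside the group. The arrays of a dye-swap pair share a sample, so equal time points pair the replicates.

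The members and lists were chosen with earlier results of these data known. Genes named are, per test, the 5 largest changes each way that passed with equal signs in both orientations, the 5 most and least alike pairs, the 10 open reading frames most like the median, and any member or list gene with its outcome. A gene that these rules name is counted but not reported here. Alternatives covered dye orientation, array centring, values at the limit, time points, period, date batch, serial correlation and span. Promoter motifs and protein identity of copies were not analysed here.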

Additional observations from a re-analysis of the deposited data

Results flagged for a closer look

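In 20 groups of 4 time points, taken from the genes named for the comparison after release and from the medians of the members and subunits, the lowest or highest time was tested for standing apart from the other 3. This happened in 3 groups, all in the window of 65 to 80 min. For independent groups chance would give about 1 in 20. These groups share arrays, and the genes were named by a comparison of the same windows, so that rate need not hold. RPL5 was low at 80 min with -0.0723 (other times 0.07 to 0.08). RPL28 was low at 75 min with 0.111 (0.18 to 0.19), and RPS14A was low at 75 min with 0.0368 (0.09 to 0.10).

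The fitted cosine differed between the cycles in 16 of 137 members (11.7%), against a background of 23.4% of all open reading frames, and in 3 without 105, 110 and 115 min, against 11.5%. The amplitude in cycle 2 minus that in cycle 1 was -0.0834 for RPS27A (0.27 to 0.18), 0.48 for RPL7B (0.22 to 0.70), 0.38 for RPL37B (0.04 to 0.43), 0.35 for RPS25A (0.10 to 0.46), 0.25 for RPL26A (0.02 to 0.28) and 0.25 for RPS27B (0.07 to 0.32). Without 105, 110 and 115 min the differences were -0.13 for RPS27A and 0.32 for RPL7B, which still passed, and 0.11 for RPL37B, 0.02 for RPS25A, 0.10 for RPL26A and 0.03 for RPS27B, which did not. The arrays of cycle 2 lie in other date batches than those of cycle 1, except that at 60 min in replicate 2, so batch and cycle cannot be told apart.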

How the results depend on the processing

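The count of periodic members, 8, became 35 without 105, 110 and 115 min, 19 with a period of 60 min, 2 and 5 in replicates 1 and 2 alone with date batch as a block, and 40 with the span trend subtracted and without those times. The count of smooth courses, 85, became 19 and 25 in the replicates with date batch as a block. Of members with a cosine that differs between cycles, 16 became 3 without the late times, 1 at 60 min, 8 with the span trend subtracted, and 3 with both changes. The 6 genes lower after release became 0 to 5 when a time was left out. The median correlation between copies, 0.754, became 0.487 without the late times and 0.463 relative to the member median. With a replicate left out the ranges were 3 to 8 periodic, 70 to 74 smooth, 0 to 6 lower after release, 30 to 52 higher in cycle 2, 1 to 6 rising, 5 to 18 with a differing cosine, and 0.630 to 0.775 for the copies. The difference of amplitudes of RPL7B turned to -0.0492 without replicate 1 and was 0.717 without replicate 2. The causes were not tested.

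With the replicate block (pairing by time point), 12 members were periodic, 90 had a smooth course, 8 were lower after release, 84 were higher in cycle 2 and 6 rose. The 68 higher in cycle 2 stayed between 49 and 75 in count under the alternatives other than leaving out a replicate and the block. It changed no call of a named gene other than RPL7B for the level and RPP2B for the slope. For 43 results on single named genes, 272 values kept direction and call, 131 no longer passed (19 and 18 of them without replicates 1 and 2) and 1 reversed. Of the subunit medians, 91 values moved by less than the replicate spread and 11 by more. The span trend was added after the data were seen.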
